A study of Mus musculus with 6 samples.

Results

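The genes described here encode the respiratory chain and ATP synthase of the mouse liver, the 5 protein complexes of the inner mitochondrial membrane known as complexes I to V. They were taken from the table by biotype and name: protein-coding genes named as Nduf subunits, Sdha to Sdhd, Uqcr genes, Cyc1, Cox4 to Cox8 genes or Atp5 genes, together with every protein-coding gene of the mitochondrial chromosome. The rule found 98 genes among the 41838 in the table, 85 nuclear and 13 mitochondrial, and used no measured value. Of these, 91 (78 nuclear, all 13 mitochondrial) had a mean of at least 1 FPKM (fragments per kilobase of gene, scaled to the size of the library) and entered the test with 10453 genes in all. The tested members were 43 of 44 in complex I, 4 of 4 in complex II, 10 of 10 in complex III, 15 of 21 in complex IV and 19 of 19 in complex V. A name can place a gene loosely: Ndufa4, named for complex I, is now counted with complex IV, Ndufa4l2 is its paralog, Cox7a2l is a factor that joins complexes III and IV, and Atp5s and Atp5sl are not structural subunits of ATP synthase.

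Livers of 3 Alkbh5flox/flox mice, which carry the floxed gene, were compared with livers of 3 Alkbh5-HKO mice, whose titles also read Alkbh5-CKO. They are called flox 1 to 3 and HKO 1 to 3 below. The labels call the 3 samples of a group independent biological replicates and give 9 weeks, in the series text as the age and in the protocol as the time on normal chow. Not given in the sources used here are the Cre driver, the deleted region, the sex and the feeding state. ALKBH5 removes the methyl mark N6-methyladenosine from RNA, and the series asks what it does for liver function.

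Alkbh5 (gene 268420, chromosome 11, GRCm38.p6) read 17.8, 16.8 and 14.8 FPKM in flox 1 to 3 and 0.508, 0.443 and 0.476 in HKO 1 to 3, a log2 fold change of -3.56 (SE 0.12, adjusted p = 8.14e-05 by limma with Benjamini-Hochberg adjustment). Depth was 14907384 to 17034754 reads per library. Hepatocyte markers summed to 48920 to 60276 FPKM in flox and 53827 to 57484 in HKO, all 10 of them tested and 0 past the threshold, where 0.488% of all tested genes passed. Of the 10, 3 were above flox and 7 below. Alb, with the largest part of the sum (means of 28517 and 36341), lay above flox without overlap. Apoa1 (log2 -0.78) and Hnf4a (-0.55) lay below without overlap, beside 12.8% of all tested genes above and 12.6% below. Skeletal muscle markers, relevant because several of the tissue isoforms below belong to muscle, summed to 0.260 to 1.28 FPKM over all libraries, with Ckm, Myh1 and Myl1 at 0. All 5 tested erythroid markers were below flox and 1 passed, with list sums of 352 to 674 FPKM in flox and 105 to 209 in HKO. The part of these cells in the values below was not tested. In whole liver, fewer cells of a type and less RNA per cell cannot be told apart.

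Electrons enter the chain from NADH at complex I and from succinate at complex II, pass through coenzyme Q to complex III and through cytochrome c to complex IV, which hands them to oxygen. Complexes I, III and IV pump protons, and complex V, the ATP synthase, lets them back to make ATP. Complex II is built from nuclear genes alone, whereas the other complexes combine nuclear subunits with core subunits made inside the organelle from mitochondrial DNA. The liver uses this machinery to pay for gluconeogenesis, urea synthesis and fatty acid oxidation.

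Part of the mitochondrial genome also lies in the nuclear genome, and this bears on how 7 of its genes can be measured. GENCODE M21 (GRCm38) lists 7 pseudogenes side by side on chromosome 1, between 24611535 and 24616197, that copy the stretch from the end of COX1 to ND4. The copies of COX2 (Gm28661, 681 of 681 aligned bases), ATP6 (Gm10925, 678 of 678), COX3 (Gm28437, 783 of 783), ND3 (Gm28438, 342 of 342), ND4L (Gm10222, 294 of 294) and the first 876 bases of ND4 (Gm28439) were identical to the mitochondrial gene. Gm29216 matched the end of COX1 with 1 mismatch in 483 bases. COX1 (mitochondrial chromosome, 6360 to 6449, plus strand) and Gm29216 (chr1:24616129-24616197, minus strand) are shown because they hold the edge of the copied stretch, and COX2 (mitochondrial chromosome, 7013 to 7132, plus strand, from its start codon) and Gm28661 (chr1:24615446-24615565, minus strand) because they cannot be told apart. Capitals mark the bases that both sequences of a pair share, and the lower-case letter inside the capitals of COX1 and Gm29216 is their mismatch.
COX1: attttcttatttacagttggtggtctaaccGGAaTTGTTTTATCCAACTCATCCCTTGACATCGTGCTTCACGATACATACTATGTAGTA
Gm29216: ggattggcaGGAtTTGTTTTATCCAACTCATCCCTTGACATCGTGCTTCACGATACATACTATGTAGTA
COX2: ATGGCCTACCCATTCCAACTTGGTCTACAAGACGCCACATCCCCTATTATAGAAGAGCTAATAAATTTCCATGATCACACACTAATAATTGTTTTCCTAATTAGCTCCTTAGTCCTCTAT
Gm28661: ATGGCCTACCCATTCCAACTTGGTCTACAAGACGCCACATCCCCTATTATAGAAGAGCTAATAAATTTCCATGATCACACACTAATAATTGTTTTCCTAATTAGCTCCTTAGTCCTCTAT

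The share of 150-base windows with an exact copy among these gene models was 99.4% for COX2 and ATP6, 99.8% for COX3, 98.0% for ND4L, 97.0% for ND3, 59.2% for ND4 and 23.6% for COX1. It was 0 for ND1, ND2, ND5, ND6 and CYTB, and ATP8 was not assessed because GENCODE M21 has no model of its copy. Nearly every read of this length from COX2 can thus be placed in the nuclear genome with no mismatch, at Gm28661 or, for some windows, at a further copy, Gm13341 on chromosome 2. Not given in the sources used here is how the submitters' counting treated reads with several matches.

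The mitochondrial genes had either high or low levels, and the low ones were the mostly copied genes and ATP8. On the per-length FPKM scale, COX1, a catalytic subunit of complex IV, had the highest mean over the 6 libraries, 10864. CYTB, the core of complex III, followed at 6767, and the complex I subunits ND2, ND1, ND4, ND6 and ND5 at 5344, 4616, 2711, 2373 and 1719. COX2 and COX3, the other mitochondrial subunits of complex IV, averaged 189 and 157, and ATP6, the proton channel of ATP synthase, 255. The complex I subunits ND4L and ND3 averaged 47.8 and 25.2, and ATP8, a small subunit whose gene overlaps ATP6, averaged 4.27. The ranges of neighbours in this order overlapped, except between COX1 and CYTB (9398 to 13092 and 6251 to 7919), ND1 and ND4 (3957 to 5087 and 2241 to 3137) and ND5 and ATP6 (1327 to 2504 and 72.9 to 991). The 5 genes with over 80% of windows copied had means between 25.2 and 255, and the 5 with none between 1719 and 6767. The part of shared reads in this gap was not tested.

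**Figure D1:**
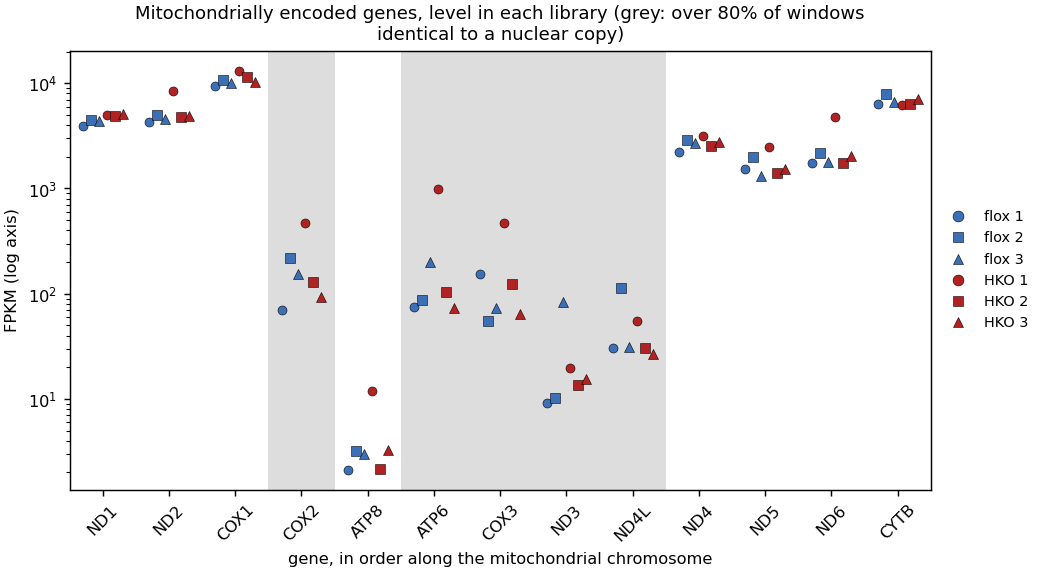
FPKM on a log axis of the 13 mitochondrially encoded genes, in order along the mitochondrial chromosome, in flox (blue) and HKO (red) libraries 1 to 3, 1 point per library. Grey bands mark the genes with over 80% of windows copied in the nucleus, whose means lie between 25.2 and 255, and HKO 1 is the highest library in 9 of the 13 genes.

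None of the mitochondrial genes passed the test in either direction, and HKO 1 stood apart in most of them. ND2 read 4302, 5006 and 4575 FPKM in flox 1 to 3 and 8471, 4830 and 4877 in HKO 1 to 3. ND6 read 1742, 2165 and 1805 in flox and 4739, 1760 and 2027 in HKO. ATP6 read 74.0, 86.8 and 200 in flox and 991, 104 and 72.9 in HKO. In all 3 genes HKO 1 was the highest library and the other HKO libraries lay within or near the flox range. The log2 fold changes, HKO minus flox on the log2(FPKM + 1) scale, were 0.34 (SE 0.24) for ND2, 0.44 (SE 0.36) for ND6 and 0.84 (SE 0.96) for ATP6. Without HKO 1, which leaves 2 HKO libraries, they were 0.07, -0.00 and -0.32.

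COX2 read 69.5, 220 and 153 FPKM in flox and 467, 130 and 94.0 in HKO, and COX3 read 155, 55.5 and 72.4 and then 470, 123 and 64.7. ATP8 read 2.13, 3.18 and 2.99 in flox and 11.9, 2.14 and 3.27 in HKO. HKO 1 was again the highest in each. A locus without a gene name in the table (chr1:24611217-24616191, plus strand) covers nearly all of the nuclear copies. The copies lie on the minus strand and reach to 24616197. This locus read 21.4, 25.4 and 28.9 FPKM in flox and 69.5, 38.1 and 23.1 in HKO, so HKO 1 was the highest there too. ND3 and ND4L departed elsewhere: ND3 was highest in flox 3 (83.7, against 9.08 to 19.7 in the other 5 libraries) and ND4L in flox 2 (113, against 26.7 to 54.7).

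ND1 was the only one of the 13 mitochondrial genes whose groups did not overlap, where those of 25.4% of all tested genes did not. It read 3957, 4441 and 4336 FPKM in flox and 4977, 4895 and 5087 in HKO, and HKO 1 did not stand apart. The means were 4245 ± 255 and 4987 ± 96.4 (SD, n = 3), with a log2 fold change of 0.23 (95% interval -0.08 to 0.55, adjusted p = 0.417 by limma with Benjamini-Hochberg adjustment) and 0.24 without HKO 1. CYTB read 6363, 7919 and 6623 in flox and 6251, 6378 and 7065 in HKO (log2 -0.08), and the groups overlapped. COX1 read 9398, 10709 and 10059 in flox and 13092, 11587 and 10342 in HKO (log2 0.21), with flox 2 above HKO 3. ND4 and ND5 overlapped as well, with log2 values of 0.11 and 0.13. ND6 is encoded on the strand opposite to the other 12 genes, and with no strand setting known for the counting its reads and those of transcripts crossing it cannot be told apart.

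As a share of all reads, the mitochondrial chromosome held 3.66%, 4.22% and 4.38% of flox libraries 1 to 3 and 5.67%, 4.68% and 4.35% of HKO libraries 1 to 3. The nuclear members took 0.862% to 1.09% in flox and 0.920% to 1.10% in HKO. Reads on mitochondrial protein-coding genes were 4.09, 4.38 and 3.90 times those on the nuclear members in flox 1 to 3, and 5.97, 4.28 and 3.84 times in HKO 1 to 3. HKO 1 was the high library of this ratio, and HKO 3 lay below every flox library, so the groups overlapped.

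Across both genomes 0 of the 91 tested members passed limma's test with Benjamini-Hochberg adjustment at 0.05, where 0.488% of all tested genes passed (0.268% higher, 0.22% lower). At an unadjusted p under 0.05 there were 4 members, Atp5g1, Sdhb, Atp5s and Ndufs3, where 17% of all tested genes lay. With 1 library left out this count was 0 (without flox 2) to 10 (without HKO 3), and 1 without flox 1. Of the 10453 tested genes, 1193, 1834 and 1205 lay there in the same 3 fits. HKO lay above flox without overlap in 15 members, where 12.8% of all tested genes did, and below in 3, where 12.6% did. Without HKO 1 these counts were 26 above and 3 below, with 18.2% of all tested genes in each direction. The median log2 fold change was -0.03 for the nuclear and 0.23 for the mitochondrial members, beside -0.02 for all tested genes. Without HKO 1 the medians became 0.11 and -0.03, with all tested genes at -0.01. Both genomes thus changed the sign of their median when this library was left out. Other libraries moved the nuclear median too, to -0.14 without HKO 3, the highest of 6 libraries in 31 of the 78 nuclear members, and to -0.11 without flox 1. The nuclear median was also above 0, at 0.01 to 0.05, with quantile scaling, voom on reads, or values rescaled to TPM or to the sum of reads, where the median of all tested genes lay at 0.00 to 0.06. By complex, the medians of II (0.15 to 0.29) and V (0.03 to 0.24) were above 0 in all 18 alternatives, and those of I, III and IV took both signs. Some of the 18 could not change a sign. Plain eBayes and the replicate block leave every fold change as it is, and median-of-ratios scaling divided every library by the same 1.008.

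**Figure D2:**
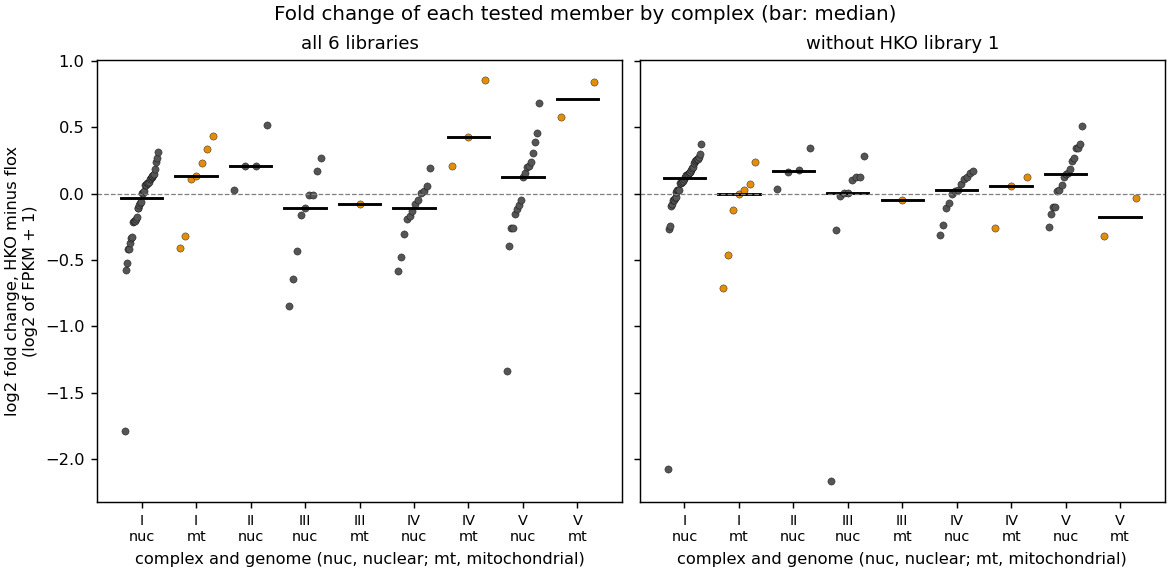
Log2 fold change of FPKM + 1, HKO minus flox, of each tested member by complex and genome, from all 6 libraries (left) and without HKO 1 (right), with a bar at each median. With HKO 1 left out, the nuclear median goes from -0.03 to 0.11 and the mitochondrial median from 0.23 to -0.03.

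The departure of HKO 1 had opposite signs in the 2 genomes. For each gene the deviation of a library from the 6-library mean of log2(FPKM + 1) was taken, and the median over members was -0.22 in HKO 1 for the nuclear genes and 0.58 for the mitochondrial genes. In the other 5 libraries the medians lay between -0.11 and 0.17 for the nuclear genes and between -0.27 and -0.03 for the mitochondrial genes. HKO 1 was the lowest of 6 libraries in 41 of the 78 tested nuclear members and the highest in 9 of the 13 mitochondrial genes. Over all tested genes the library medians lay between -0.01 and 0.02. The deposited values were already on a common scale, with a median-of-ratios factor of 1.008 in every library. That holds these medians near 0, so they cannot show whether HKO 1 stood apart over all genes. Over all genes, HKO pairs differed by a chi-square per degree of freedom of 63.0 and 61.2 with HKO 1 and 31.6 without it. Flox pairs differed by 28.3 to 53.7.

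**Figure D3:**
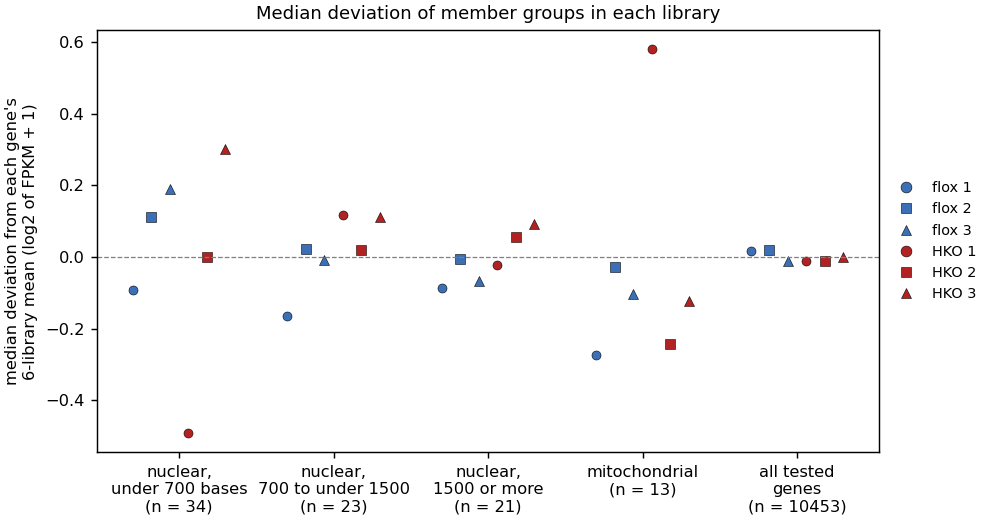
Median deviation from each gene's 6-library mean, on the log2(FPKM + 1) scale, for nuclear members in 3 length classes, mitochondrial genes and all tested genes, 1 point per library. HKO 1 (red circles) lies at -0.49 for nuclear members under 700 bases and at 0.58 for mitochondrial genes. It lies at -0.01 for all tested genes, where the scaling of the deposited values holds every library near 0.

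The nuclear members in which HKO 1 was low were mostly short. The deposited length of the tested nuclear members had a median of 768 bases, against 3259 for all tested protein-coding genes, and 43.6% of them were under 700 bases, against 2.43%. The difference between HKO 1 and the mean of HKO 2 and 3 had a median of -0.57 on the log2 scale over the 34 nuclear members under 700 bases, 0.04 over the 23 of 700 to under 1500 bases and -0.02 over the 21 of 1500 bases or more. Protein-coding genes that are no members had medians of -0.43, -0.23 and 0.03 in the same classes. Across the 78 nuclear members this difference had a Pearson r of 0.51 and a Spearman rho of 0.45 with log2 length, and across all 9411 tested protein-coding genes an r of 0.33. The difference between HKO 2 and HKO 3 had an r of 0.51 with log2 length over the members as well, but of 0.04 over all protein-coding genes. Between flox libraries the members' rho was 0.33 for flox 1 minus flox 2, 0.58 for flox 1 minus flox 3 and 0.44 for flox 2 minus flox 3. Their r for the same pairs was 0.26, 0.07 and -0.15, and over all protein-coding genes r was 0.06, 0.11 and 0.07. By rank, an order by length among the members was thus not limited to HKO 1, while r between flox libraries was lower and took both signs. These points are genes that share libraries, not replicates. With GC content of the transcript the r was -0.07 over the members and -0.50 over all protein-coding genes. The part of length or base composition in the values was not tested.

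Atp5k, the shortest tested nuclear member at 292 bases and a small membrane subunit of ATP synthase, had the most negative difference between HKO 1 and the other HKO libraries. It read 86.2, 114 and 125 FPKM in flox and 8.56, 59.4 and 135 in HKO, so that HKO 1 and HKO 2 lay below every flox library and HKO 3 above. Its log2 fold change was -1.34 (SE 0.88) with all libraries and -0.25 without HKO 1. Uqcr11, a small complex III subunit, read 201, 266 and 266 in flox and 60.5, 151 and 266 in HKO (-0.85 and -0.28). Cox5b, a zinc-binding subunit of complex IV, read 140, 215 and 197 in flox and 61.6, 127 and 221 in HKO (-0.59 and -0.11). Ndufa3, an accessory subunit of complex I, read 104, 128 and 157 and then 39.6, 105 and 148 (-0.58 and -0.03). In each of these 4 genes HKO 1 was the lowest library and HKO 3 lay within or above the flox range.

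**Figure D4:**
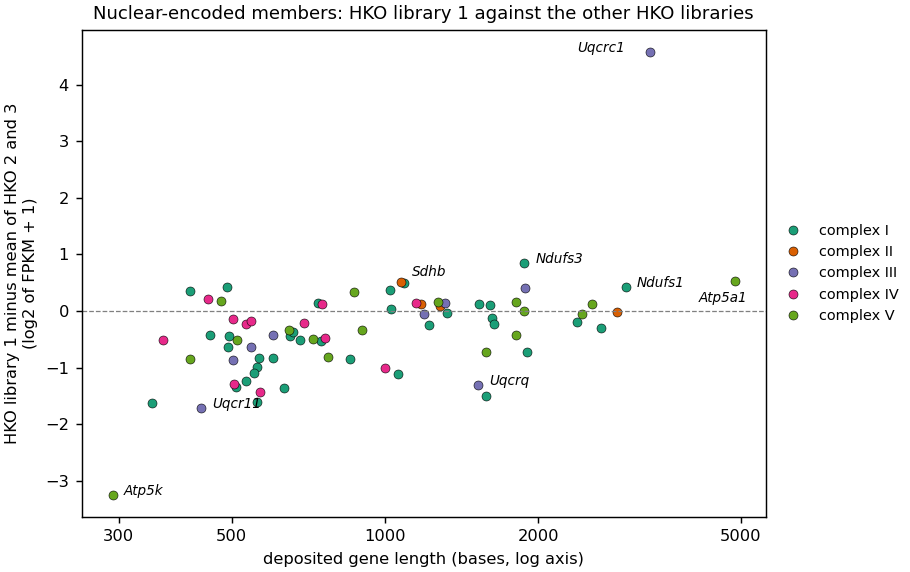
HKO 1 minus the mean of HKO 2 and HKO 3, on the log2(FPKM + 1) scale, against deposited gene length in bases (log axis) for the 78 tested nuclear members, coloured by complex. Members under 700 bases have a median of -0.57, with Atp5k lowest, and Uqcrc1 lies far above all others.

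Complex I, which oxidises NADH, had 36 tested nuclear members with a median log2 fold change of -0.03, 18 above flox and 18 below, and a median of 0.12 without HKO 1. Its core subunits are the flavin and iron-sulfur proteins that carry the electrons. Ndufs1, the largest of them, read 27.4, 29.0 and 27.5 FPKM in flox and 42.6, 32.7 and 30.7 in HKO, and the groups did not overlap (log2 0.31, SE 0.16). Ndufs8 read 60.6, 68.0 and 63.7 and then 77.2, 80.3 and 70.4, also without overlap (0.24). The adjusted p-values of these 2 were 0.356 and 0.387 by limma with Benjamini-Hochberg adjustment. In Ndufv1, which binds NADH, the groups overlapped at 82.8 to 96.6 in flox and 87.9 to 97.1 in HKO. Ndufv2 (47.7 to 52.7 and 50.9 to 61.3) and Ndufs7 (69.8 to 78.5 and 66.4 to 101) overlapped too. Among the accessory subunits, Ndufa9 lay higher in every HKO library, at 60.7, 67.0 and 61.4 in flox and 75.2, 80.4 and 73.0 in HKO (log2 0.27, 95% interval -0.03 to 0.56). Of the 36 nuclear members, 4 lay above flox without overlap and 1 below, beside 12.8% and 12.6% of all tested genes.

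Ndufs3, a core subunit of the arm that faces the matrix, was the tested member with the lowest fold change. It read 28.8, 20.7 and 11.5 FPKM in flox and 7.61, 10.2 and 1.03 in HKO (reads 874, 540, 355, 229, 353 and 29). The groups did not overlap, but the libraries of each group were spread widely. The log2 fold change was -1.79 (95% interval -3.34 to -0.24, adjusted p = 0.236 by limma with Benjamini-Hochberg adjustment). The highest library exceeded the lowest 1.55-fold in the median tested nuclear member and 28.0-fold in Ndufs3.

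Complex II, succinate dehydrogenase, also serves the citric acid cycle, and all 4 of its subunits had HKO means above flox. Their median log2 fold change was 0.21, or 0.17 without HKO 1. Sdhb, the iron-sulfur subunit (chromosome 4, 140961271 to 140979197, plus strand, GRCm38.p6), read 128, 146 and 155 FPKM in flox and 261, 182 and 181 in HKO. No HKO library lay within the flox range, and HKO 1 was the highest. Its means were 143 ± 13.7 and 208 ± 45.9 (SD, n = 3), with a log2 fold change of 0.52 (95% interval 0.08 to 0.95, adjusted p = 0.226 by limma with Benjamini-Hochberg adjustment) and of 0.34 without HKO 1. Sdhc, a membrane anchor, read 118, 136 and 131 in flox and 158, 143 and 145 in HKO (log2 0.21), again without overlap. The other anchor, Sdhd, read 118, 134 and 127 and then 151, 129 and 158 (0.21), with HKO 2 inside the flox range. The flavin subunit Sdha read 135, 157 and 135 and then 144, 130 and 163 (0.03), and its groups overlapped fully. HKO thus lay above flox without overlap in 2 of the 4 subunits, beside 12.8% of all tested genes.

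Complex III, the cytochrome bc1 complex, had 9 tested nuclear members with a median of -0.11, 2 above and 7 below, and of 0.01 without HKO 1. Its nuclear electron carriers are Cyc1 and Uqcrfs1. Cyc1, cytochrome c1, read 187, 196 and 180 FPKM in flox and 181, 180 and 197 in HKO (log2 -0.01, 95% interval -0.31 to 0.28). The Rieske iron-sulfur protein Uqcrfs1 read 149, 164 and 163 in flox and 191, 167 and 179 in HKO (0.17), without overlap. The core protein Uqcrc2 read 80.6, 88.1 and 83.0 and then 122, 90.4 and 93.0 (0.27), also without overlap. Uqcrq, a small subunit, read 164, 194 and 194 and then 73.6, 174 and 194 (-0.43), the low value being HKO 1. Of the 9 nuclear members, 2 lay above flox without overlap and 0 below, beside 12.8% and 12.6% of all tested genes.

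Complex IV, cytochrome c oxidase, had 12 tested nuclear members with a median of -0.11, 4 above and 8 below, and of 0.03 without HKO 1. Cox4i1, a regulatory subunit, read 475, 472 and 510 FPKM in flox and 355, 482 and 508 in HKO (log2 -0.13). Cox5a, which joins it early in assembly, read 191, 210 and 186 and then 171, 183 and 216 (-0.05). In both genes HKO 1 was the lowest library and the groups overlapped. Cox7a2l read 85.6, 83.3 and 77.7 in flox and 77.1, 62.5 and 77.3 in HKO. It was the one tested complex IV gene without overlap, HKO 3 lying close under the flox range, at a log2 fold change of -0.19 (adjusted p = 0.529 by limma with Benjamini-Hochberg adjustment). Of all tested genes, 25.4% had groups that did not overlap.

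Several complex IV subunits exist as isoforms made in different tissues, and these livers held the widely expressed forms. Cox6a1 had flox and HKO means of 527 and 500 FPKM, while the heart and muscle form Cox6a2 was at 0 in 5 libraries and at 0.202 in HKO 3. Cox8a had means of 320 and 331, while Cox8b was at 0 in 5 libraries and at 0.184 in HKO 3 and Cox8c was listed at 0 in all 6. Cox7a2 had means of 134 and 153, and the muscle form Cox7a1 of 1.94 and 1.05. Cox6b1 had means of 259 and 227, and the testis form Cox6b2 of 0.845 and 0.316. Cox4i2, the lung form, was at 0 in flox and at most 0.0743 in HKO, and Cox7b2 was listed at 0 in all libraries, beside 98.9 and 92.2 for Cox7b. Of the 6 complex IV members left out of the test, all were such tissue forms. Ndufa4l2, known as a hypoxia-responsive gene, was tested at means of 1.56 and 1.71, against 427 and 417 for its paralog Ndufa4.

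Complex V had 17 tested nuclear members with a median of 0.13, 9 above and 8 below, and of 0.15 without HKO 1. Its catalytic subunit Atp5b had the highest mean of all nuclear members and read 574, 583 and 532 FPKM in flox and 628, 587 and 665 in HKO (log2 0.15, 95% interval -0.16 to 0.46). Atp5c1, the central stalk, read 114, 123 and 116 and then 147, 127 and 135 (0.21). The stalk and membrane subunits Atp5h and Atp5j2 had log2 values of 0.24 and 0.31. In these 4 genes every HKO library lay above every flox library. Of all 17, 6 lay above flox without overlap and 1 below, beside 12.8% and 12.6% of all tested genes. Atp5d, a small subunit of the central stalk, lay the other way, at 165, 172 and 165 in flox and 90.3, 138 and 164 in HKO (-0.39), with HKO 3 close under the flox range.

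The ring that turns in the membrane is made of one protein encoded by 3 genes, whose fold changes differed in sign. Atp5g1 (chromosome 11, 96072793 to 96075694, minus strand, GRCm38.p6) read 104, 114 and 131 FPKM in flox and 187, 148 and 147 in HKO. The groups did not overlap, at means of 116 ± 13.2 and 161 ± 23.1 (SD, n = 3). Its log2 fold change of 0.46 (95% interval 0.08 to 0.84) had the lowest adjusted p of any member, 0.218 by limma with Benjamini-Hochberg adjustment, and was 0.34 without HKO 1. Atp5g2 read 115, 127 and 120 and then 100, 119 and 134 (-0.05), and Atp5g3, the most abundant per length, read 459, 499 and 422 and then 305, 392 and 468 (-0.26). The groups of both overlapped. The difference between the 3 genes was not tested. Atp5s, an ATP synthase coupling factor, read 2.52, 2.34 and 1.98 in flox and 3.54, 3.54 and 2.79 in HKO, without overlap (log2 0.39, adjusted p = 0.227 by limma with Benjamini-Hochberg adjustment).

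**Figure D5:**
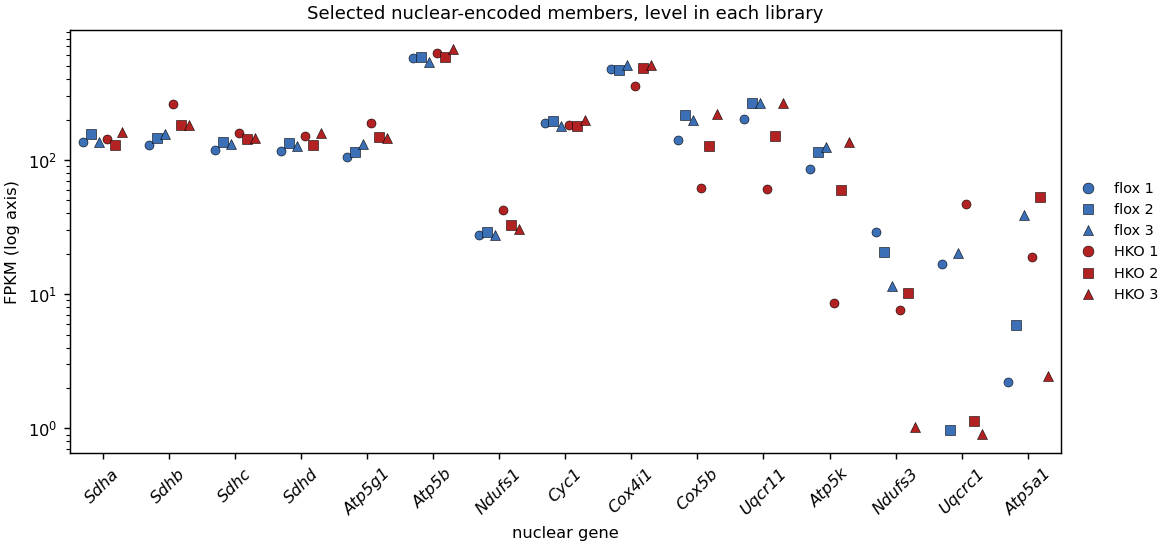
FPKM on a log axis of 15 nuclear members in flox (blue) and HKO (red) libraries 1 to 3, 1 point per library. HKO 1 is lowest in Cox4i1, Cox5b, Uqcr11 and Atp5k, and the highest library exceeds the lowest 28.0-fold in Ndufs3, 51.9-fold in Uqcrc1 and 23.7-fold in Atp5a1.

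Besides Ndufs3, 2 core subunits varied too much between libraries for their fold changes to be read. Uqcrc1, the partner of Uqcrc2 in complex III, read 16.7, 0.978 and 20.3 FPKM in flox and 47.0, 1.14 and 0.906 in HKO, a 51.9-fold range. Atp5a1, which alternates with Atp5b in the catalytic ring, read 2.22, 5.89 and 38.9 in flox and 18.8, 52.6 and 2.47 in HKO, a 23.7-fold range, while Atp5b stayed between 532 and 665. High and low libraries occurred in both groups, and the log2 fold changes were -0.64 (SE 1.43) and 0.69 (SE 1.2). The deposited length of these genes exceeded their longest coding transcript in GENCODE M21, 2.0-fold for Uqcrc1, 1.82-fold for Atp5a1 and 1.80-fold for Ndufs3. It did so 7.52-fold for Ndufa7, a complex I subunit that read 0.0922 to 0.206 and was not tested. Steadier members had a like excess: it was 2.90-fold for Ndufa11, 1.91-fold for Ndufa13 and 1.87-fold for Atp5h, whose highest library exceeded the lowest 1.36-fold, 1.39-fold and 1.45-fold. Whether reads of these genes were lost in counting was not tested.

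Other genes of the pathway came from 9 lists of assembly factors, electron carriers, coenzyme Q synthesis, mitochondrial DNA expression and nuclear regulators. Of their 96 tested genes 0 passed, where 0.488% of all tested genes did. Of the 96, 40 were above flox and 56 below, with a median of -0.06, and 17 had an unadjusted p under 0.05, beside 17% of all tested genes. HKO lay above without overlap in 11 and below in 16, beside 12.8% and 12.6% of all tested genes. Etfdh, which passes electrons from fatty acid oxidation to coenzyme Q, had the lowest fold change: it read 99.2, 98.5 and 101 FPKM in flox and 56.8, 72.7 and 72.4 in HKO (log2 -0.57, adjusted p = 0.127 by limma with Benjamini-Hochberg adjustment). All 3 HKO libraries lay well under the narrow flox range. Cox20, an assembly factor for COX2, had the highest, at 3.97, 4.61 and 0.277 in flox and 8.03, 8.15 and 5.93 in HKO (1.34, adjusted p = 0.271 by the same test), with flox 3 far below the rest.

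Complex I assembly factors made up 15 of the tested genes, 8 above and 7 below, and HKO lay above flox without overlap in 6 and below in 2, Ecsit (log2 -0.41) and Foxred1 (-0.28), beside 12.8% and 12.6% of all tested genes. Among the 6, chosen after their values were seen, were Ndufaf5 (0.995, 1.01 and 1.11 FPKM in flox and 2.16, 1.83 and 1.77 in HKO) and Acad9 (5.92, 6.94 and 5.69 and then 7.89, 8.83 and 8.17). The enzymes that transcribe and process mitochondrial RNA bear on the 13 mitochondrial genes, and of the 25 tested 13 were above and 12 below. HKO lay above flox without overlap in 2 and below in 5, beside 12.8% and 12.6% of all tested genes. The 5 were Polrmt, Tbrg4 (log2 -0.51), Supv3l1 (-0.26), Trmt10c (-0.22) and Elac2 (-0.21), and the 2 were Mterf2 and Pnpt1 (0.47). Polrmt, the mitochondrial RNA polymerase, read 8.53, 9.30 and 8.53 in flox and 6.35, 6.84 and 6.41 in HKO (log2 -0.38, adjusted p = 0.165 by limma with Benjamini-Hochberg adjustment), without overlap. The terminator family member Mterf2 read 0.837, 0.845 and 0.753 in flox and 2.02, 1.51 and 2.66 in HKO (0.74), also without overlap, and had the lowest adjusted p of the 9 lists, 0.0949 by the same test. Tfam, which packages mitochondrial DNA and starts its transcription, had means of 10.6 and 10.6 and a log2 value of -0.00. Of the 10 tested nuclear regulators 4 were above flox and 6 below. The coactivator Ppargc1a (-0.04) and the nuclear factors Nrf1 (-0.02) and Gabpa (-0.06) had log2 values near 0. The orphan receptor Esrra read 19.9, 22.7 and 18.3 in flox and 10.6, 12.9 and 18.2 in HKO (-0.54, adjusted p = 0.236 by limma with Benjamini-Hochberg adjustment), and the coactivator Pprc1 5.55, 3.93 and 4.37 and then 2.61, 2.95 and 2.94 (-0.54, adjusted p = 0.137 by the same test). These were the 2 regulators below flox without overlap, and 0 lay above, beside 12.6% and 12.8% of all tested genes. In Esrra HKO 3, at 18.2, lay close under flox 3, at 18.3. Cycs, cytochrome c itself, was at -0.32 (SE 0.22).

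The nuclear members lie on 19 chromosomes, with at most 9 on one, but many share promoter letters known from respiratory genes. RefSeq promoter windows of 300 bases (250 before to 50 after the start, GRCm38.p6) were found for 65 of the 78 tested nuclear members, 70 windows in all. The NRF1 motif (GCGCA, any base, GCGC) occurred on either strand in 18 of them (25.7%), the ETS motif CCGGAAG in 16 (22.9%) and the YY1 motif AANATGGCG in 11 (15.7%), and 39 (55.7%) held at least one. Of 9583 windows of the other tested protein-coding genes, 10.5%, 18.7%, 5.43% and 30.7% did. Over all 32851 windows in the table, of genes tested or not, the shares were 4.60%, 8.86%, 2.38% and 14.2%. The 250 bases before the start of Cox6a1, the most abundant nuclear subunit of complex IV, are shown as an example (chr5:115348959-115349208, minus strand, GRCm38.p6), with 2 NRF1 matches and 1 ETS match in capitals. The Cox6a1 window is not typical, as 4 of the 70 member windows held both an NRF1 and an ETS match. A match is a description of letters, not of a bound factor.
Cox6a1: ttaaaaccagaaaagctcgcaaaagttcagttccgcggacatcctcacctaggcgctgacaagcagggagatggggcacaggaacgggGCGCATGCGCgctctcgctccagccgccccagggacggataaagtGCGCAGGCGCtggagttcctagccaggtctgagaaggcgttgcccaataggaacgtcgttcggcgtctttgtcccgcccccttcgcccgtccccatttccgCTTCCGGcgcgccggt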

How the data were processed

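Liver RNA of 6 mice was poly(A)-selected and sequenced in read pairs, per the labels' protocols. Alignment to GRCm38.p6 with HISAT2 2.0.5 and counting with featureCounts 1.5.0-p3 are stated in the series text, and CASAVA and DESeq2 1.20.0 appear without a role in the submitters' processing notes. Not given in the sources used here are the annotation, the strand setting and the handling of multiply matching reads.

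The authors deposited FPKM for 41838 genes in 6 libraries. FPKM times deposited length gave, for 100% of the values of a library, whole multiples of 1 step within 0.001, which gave the reads back, 14907384 to 17034754 per library. The library size the authors divided by was 0.925 to 1.08 times that sum. The 6 pairs of libraries within a group differed by a chi-square of 28.3 to 63.0 per degree of freedom, so none of these was a copy.

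The test was limma 3.58.1 (R 4.3.3, trend and robust, statmod 1.5.0) on log2(FPKM + 1), Alkbh5-HKO minus Alkbh5flox/flox, for the 10453 genes that averaged 1 FPKM or more, with Benjamini-Hochberg adjustment over all of them at 0.05. It was first tested on simulated data in which no library departed from its group. That check does not cover a departure such as that of HKO 1. The added 1 shrinks fold changes of genes with low values. Lists are given by counts and medians, with no test. Alternatives covered pseudocounts of 0.1 and 5, the filter (none, or at least 5), 5 rescalings, plain eBayes, voom on the recovered reads, the replicate number as a block, and each library left out. Members, lists and tests were chosen with earlier results of these data known. Named genes were the mitochondrial genes, core subunits, tissue isoforms, the 5 nuclear members at each end of the fold changes, Alkbh5 and the extremes of the pathway lists. Other genes named were chosen after their values were seen. Promoter windows came from RefSeq and mitochondrial and pseudogene sequences from GENCODE M21 transcripts, and Atp5a1 is given without sequence. Genome sequence and proteins were not used here. One core subunit is not reported here.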

Additional observations from a re-analysis of the deposited data

How the results depend on the processing

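In all 18 alternatives 0 members passed, and the lowest adjusted p of any member was 0.109 to 0.452 by limma with Benjamini-Hochberg adjustment. Over all genes the calls moved: against 28 higher and 23 lower, a pseudocount of 0.1 gave 18 higher, no filter 0 and 1, voom on recovered reads 78 and 42, the replicate block 1 and 8, and leaving out 1 library 0 to 29 higher and 1 to 38 lower. The complex V median log2 fold change, 0.15, lay between 0.032 (without replicate 3 of Alkbh5-HKO) and 0.18 with 1 library left out. The cause of these shifts was not tested. The mitochondrial median fell from 0.23 to -0.03 without HKO 1.

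Same-numbered libraries of the groups correlated at 0.153, -0.145 and -0.0514 in their deviations, and differently numbered ones at -0.157 to 0.248. They were not treated as pairs in the main test, though these values do not settle whether they were paired. The Alkbh5 log2 fold change passed in all 18 alternatives, at -1.97 (pseudocount 5) to -5.02 (voom). The other 181 alternative values of counts and medians stayed within 1.5-fold or 1 SD between libraries. For a median this tolerance could exceed the value itself, so a change of sign could count as staying. The SD was 0.164 for the nuclear median of -0.03, which had the other sign in 6 of the 18 alternatives. All 896 values of single genes kept their side of the threshold, though 51 of them, in 21 of 50 genes, had the other sign. Depth limits the members with few reads, such as Cox7a1 and ATP8, which had as few as 3 and 7 in a library. The median standard error of a member's log2 fold change was 0.19. Groups of 3 are too small to settle whether a single sample is outlying, and leaving out a library, as done above, leaves 2 in its group.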
